A study of Mus musculus with 4 samples.

Results

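The IL-1 family and inflammasome genes described here are Il1a, Il1b, Il18, Il1rn, Il1r2, Nlrp3, Casp1, Casp4 and Gsdmd. They were taken by symbol from the gene list, and each of the 9 symbols matched 1 of its 31053 genes. Their transcripts were counted in leukocytes sorted by the surface protein CD45 out of whole colons of C57BL/6 mice, all wild type. The 2 control libraries came from control-treated mice, and the 2 stress libraries came from mice held in daily restraint for 7 days. All 4 libraries were droplet single-cell libraries, in which a unique molecular identifier (UMI) tags each captured RNA molecule. Age, sex and the number of mice behind each library are not given in the labels, so each p-value reflects the spread among 4 libraries alone, and that spread may be technical.

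IL-1 alpha (Il1a) and IL-1 beta (Il1b) signal through the same receptor, while IL-18 (Il18) uses a related one. IL-1 beta and IL-18 are made as inactive precursors, and caspase-1 (Casp1) cuts both after a sensor such as NLRP3 (Nlrp3) has assembled an inflammasome. Gasdermin D (Gsdmd), once cut by caspase-1 or by the mouse lipopolysaccharide-binding caspase encoded by Casp4 (caspase-11), forms membrane pores that release mature IL-1 beta. The receptor antagonist (Il1rn) and the decoy receptor IL1R2 (Il1r2) limit IL-1 signalling. In the gut, mononuclear phagocytes are a known source of IL-1 beta, and epithelial cells are a known source of IL-18. A transcript level does not measure cleavage or release of the proteins.

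On GRCm38, the mm10 assembly, Il1a (ENSMUSG00000027399) spans chr2:129299610-129309972 and Il1b (ENSMUSG00000027398) spans chr2:129364570-129371139, both on the minus strand. Il1rn (ENSMUSG00000026981) lies on the same chromosome at chr2:24336853-24351494, plus strand. Casp1 (ENSMUSG00000025888, chr9:5298517-5307265) and Casp4 (ENSMUSG00000033538, chr9:5308828-5336783) are plus-strand neighbours, and Il18 (ENSMUSG00000039217) is at chr9:50554827-50581840, plus strand. Il1r2 (ENSMUSG00000026073) is at chr1:40074079-40125231, Nlrp3 (ENSMUSG00000032691) at chr11:59541568-59566956 and Gsdmd (ENSMUSG00000022575) at chr15:75862327-75867408, all on the plus strand. All 9 are protein coding in GENCODE vM21. Of the annotated genes that overlap a member, Il1bos held 47 UMIs beside 75339 of Il1b, Bco2 held 81 and Tex12 held 9 beside 736 of Il18, and Gm16894 held 26 beside 4519 of Il1r2.

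RefSeq promoters on GRCm38.p6 were matched by symbol for 8 of the 9 genes, and 4 of them are shown because they carry the 2 motifs found among the cytokine, antagonist and caspase genes below. Each is the 250 bases before the annotated start, read 5′ to 3′ on the gene's strand, with motif matches in capitals.
Il1a, chr2:129309973-129310222, minus strand: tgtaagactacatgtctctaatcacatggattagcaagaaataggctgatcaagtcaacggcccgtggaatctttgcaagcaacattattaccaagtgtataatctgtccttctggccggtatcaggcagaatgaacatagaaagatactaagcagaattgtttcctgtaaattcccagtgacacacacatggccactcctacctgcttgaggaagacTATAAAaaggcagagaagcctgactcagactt
Il1b, chr2:129371140-129371389, minus strand: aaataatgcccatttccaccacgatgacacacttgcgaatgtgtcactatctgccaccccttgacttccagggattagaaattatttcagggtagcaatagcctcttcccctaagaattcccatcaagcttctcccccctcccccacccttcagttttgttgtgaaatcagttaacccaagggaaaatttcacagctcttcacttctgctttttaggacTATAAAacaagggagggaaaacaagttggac
Il1rn, chr2:24336610-24336859, plus strand: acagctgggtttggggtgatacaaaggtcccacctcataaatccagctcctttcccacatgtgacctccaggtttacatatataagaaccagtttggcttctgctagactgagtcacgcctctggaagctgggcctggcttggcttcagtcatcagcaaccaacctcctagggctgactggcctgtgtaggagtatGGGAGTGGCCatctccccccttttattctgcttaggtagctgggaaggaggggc
Casp4, chr9:5308599-5308848, plus strand: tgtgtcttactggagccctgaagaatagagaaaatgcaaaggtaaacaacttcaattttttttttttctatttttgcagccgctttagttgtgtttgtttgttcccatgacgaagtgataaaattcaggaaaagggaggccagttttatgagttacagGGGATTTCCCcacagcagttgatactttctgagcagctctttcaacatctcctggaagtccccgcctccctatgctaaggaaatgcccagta
The motifs searched, on both strands, were TATAAA (the core of a TATA box), GGGANNNNCC (a form of the NF-kappaB site) and TTGCNNAA (a form of the C/EBP site), where N is any base. TATAAA began 32 bases before the start of Il1a and 31 bases before that of Il1b. It was also in the Il18 window, on the opposite strand, and 12.4% of all 32851 promoters of this length hold it. GGGANNNNCC was in 1 of the 3 Il1rn windows, in 1 of the 2 Nlrp3 windows and in both overlapping Casp4 windows, where the same bases match on both strands, against 17.6% of all promoters. TTGCNNAA was in none of the 12 windows of these genes, against 9.56% of all promoters.

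Of 2941, 6124, 10259 and 5591 barcodes in control 1, control 2, stress 1 and stress 2, a floor of 500 UMIs and a ceiling of 10% mitochondrial UMIs kept 2562, 5443, 8333 and 4138. Median depth per kept barcode ran from 2174 to 4547 UMIs. Any pair of libraries shared 3 to 12 kept barcode sequences. Barcodes were put into classes by marker genes that include no member, and each class is written "-like". The same markers set the classes, so their counts describe the classes and do not check the names. A monocyte-like barcode carried a median of 4 of 8 monocyte markers (Ly6c2, Ccr2, Plac8 and others) and 2 of 8 macrophage markers. A macrophage-like barcode carried a median of 6 macrophage markers (C1qa, C1qc, Mertk and others) and 1 monocyte marker. The cDC2-like barcodes, a class of dendritic cells, carried a median of 3 cDC2, 2 monocyte and 1 macrophage markers. Of 762 monocyte-like barcodes 17.1% lay within 0.1 score units of the cut to another class, against 11.3% of 657 macrophage-like and 22.1% of 240 cDC2-like barcodes. Levels below are UMIs of a gene per 1000000 UMIs of its class in a library (CPM), in the order control 1, control 2, stress 1, stress 2. A summed level cannot tell more cells that transcribe a gene from more RNA per cell.

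**Figure D1:**
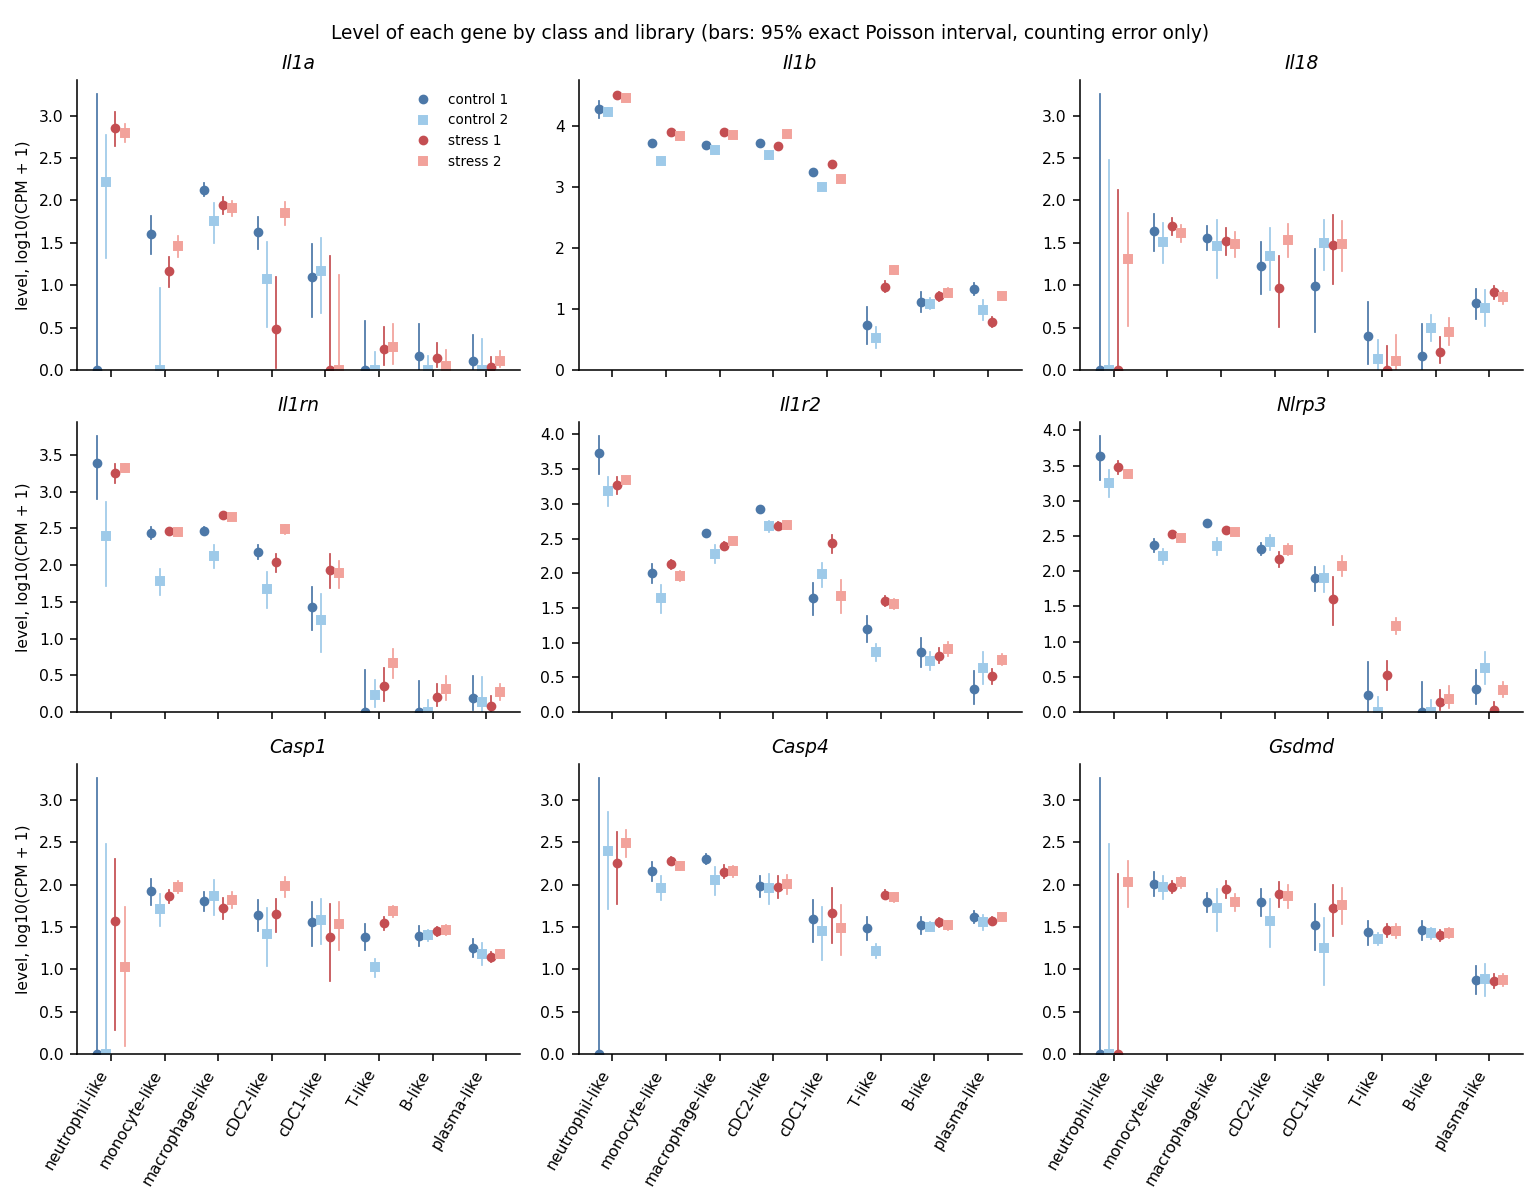
Level of each gene as log10(CPM + 1) in 8 classes, with 1 point per library and bars for the 95% exact Poisson interval, which covers counting error only. Il1b sat in the myeloid classes on the left, between 1008 and 32679 CPM. It was at or under 42.6 CPM in T-like, B-like and plasma-like barcodes, where Casp1, Casp4 and Gsdmd were also counted.

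Il1b, the IL-1 agonist that needs an inflammasome, separated myeloid classes from lymphoid ones in every library. Monocyte-like barcodes held 5187, 2643, 8000 and 6840 CPM, macrophage-like barcodes held 4960, 4131, 8036 and 7265 CPM, and cDC2-like barcodes held 5368, 3352, 4748 and 7354 CPM. The ranges of these 3 classes overlapped. B-like barcodes held 12.2, 11.3, 15.3 and 17.7 CPM and plasma-like barcodes 20.2, 8.79, 5.16 and 15.4 CPM, and the lowest myeloid library stood clear of both. Neutrophil-like barcodes were few (1, 8, 23 and 41) and stood highest, at 18987, 17201, 32679 and 28464 CPM.

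Il1a, which needs no caspase-1 cut to bind the receptor, followed another order. Macrophage-like barcodes held 133.6, 55.7, 86.9 and 80.03 CPM, cDC2-like barcodes 41.3, 10.7, 2.07 and 70.6 CPM, and monocyte-like barcodes 39.7, 0, 13.7 and 27.9 CPM. The 3 ranges overlapped between neighbours in that order, and control 2 had no Il1a UMI among 81 monocyte-like barcodes. The few neutrophil-like barcodes, 1 of them in control 1, stood higher in stress. Their mean Il1a level was 81.5 CPM in the controls and 671 CPM in the stress libraries, on 87 UMIs in all. Within the macrophage-like class the barcodes of clusters 1 and 21 held 177.9, 155.4, 144.8 and 165.2 CPM, against 3.83, 22.1, 79.8 and 60.1 CPM (1, 4, 65 and 59 UMIs) in those of cluster 7. Every library was higher in clusters 1 and 21, and in cluster 7 both stress libraries were above both controls. Clusters were made without the 9 genes.

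Il18 was counted at 42.1, 31.8, 48.6 and 39.9 CPM in monocyte-like and 35.6, 27.8, 32.6 and 29.7 CPM in macrophage-like barcodes, which overlapped. Its range in cDC2-like barcodes, 8.29 to 33.6 CPM, stood apart from plasma-like barcodes at 4.39 to 7.29 CPM. The 31 epithelial-like barcodes that passed the CD45 sort in control 1 held 85.9 CPM of Il18 on 36 UMIs, with a 95% counting interval of 60.2 to 119 CPM. The other libraries had 1 to 6 such barcodes and at most 1 Il18 UMI.

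Il1rn, the receptor antagonist, was highest among the tested classes in macrophage-like barcodes, at 292, 131, 486 and 450.5 CPM. Monocyte-like barcodes held 270, 59.0, 287 and 281 CPM, so control 1 lay just below the stress libraries and control 2 stood alone far below. The cDC2-like levels were 151.5, 46.4, 107.7 and 304 CPM, again lowest in control 2. T-like, B-like and plasma-like barcodes held at most 3.67 CPM.

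Il1r2, the decoy receptor, was ordered differently from the ligands, with 3 myeloid classes that did not overlap. The cDC2-like barcodes held 856, 471, 479 and 489 CPM, macrophage-like barcodes 376, 191, 248 and 293 CPM, and monocyte-like barcodes 99.2, 43.1, 133 and 90.6 CPM. Among classes with at least 30 barcodes in every library, T-like barcodes came next with 14.99, 6.31, 39.0 and 35.0 CPM. They overlapped the B-like range of 4.45 to 7.15 CPM. Smaller classes were left out of this order. Of these, cDC1-like barcodes held 43.6 to 268 CPM and migratory dendritic cell-like barcodes 454 to 1374 CPM, and neutrophil-like levels are given below.

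Nlrp3, the sensor, was counted at 491, 227, 389 and 361 CPM in macrophage-like, 233, 163 and then 335 and 293 CPM in monocyte-like, and 209, 257, 147 and 202 CPM in cDC2-like barcodes. These ranges overlapped and lay apart from T-like, B-like and plasma-like barcodes, whose highest value was 15.8 CPM. Casp1 differed less between classes: 81.8, 49.9, 71.6 and 92.8 CPM in monocyte-like, 62.5, 71.6, 52.1 and 65.2 CPM in macrophage-like and 12.9 to 16.8 CPM in plasma-like barcodes. Casp4 held 143.8, 90.8, 188 and 165 CPM in monocyte-like and 199, 111, 141 and 142 CPM in macrophage-like barcodes, against 35.1 to 40.8 CPM in plasma-like and 30.8 to 34.7 CPM in B-like barcodes. Gsdmd, the pore protein, was highest in monocyte-like barcodes among classes with at least 30 barcodes in every library. It stood there at 101.7, 93.1, 93.4 and 106.0 CPM, apart from the next of these classes. Its plasma-like level was nearly the same in all libraries, 6.26 to 6.59 CPM.

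**Figure D2:**
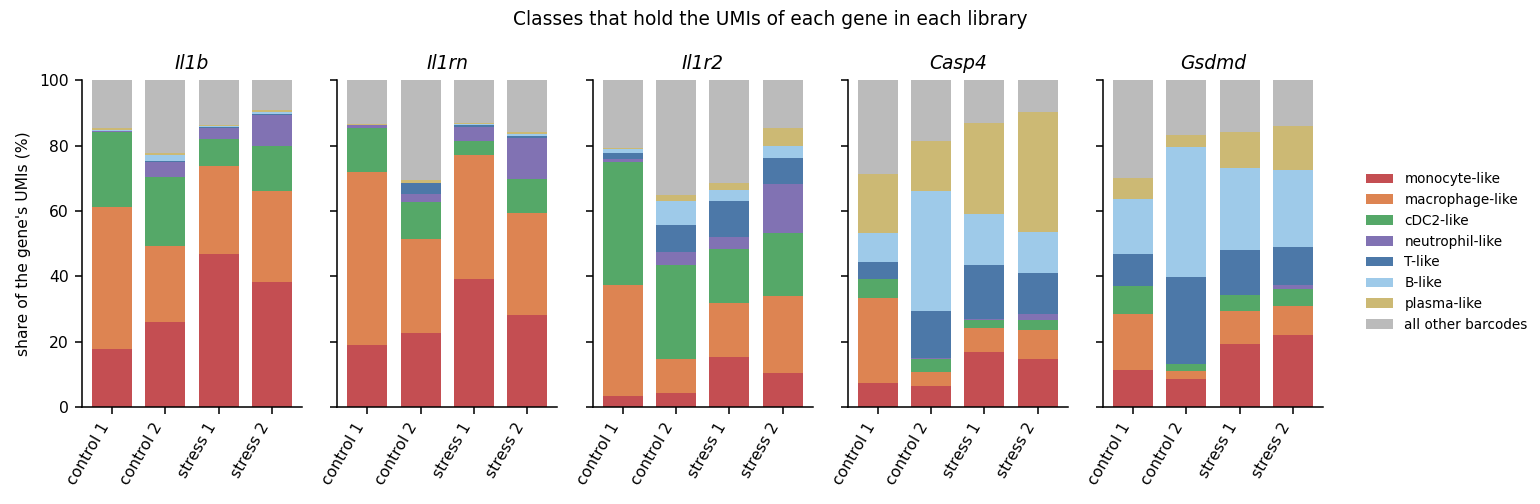
Share of the UMIs of 5 genes held by each class in each library, in percent, with all other kept barcodes in grey. Il1b and Il1rn UMIs lay mostly in monocyte-like, macrophage-like and cDC2-like barcodes, while Casp4 and Gsdmd UMIs were also spread over B-like, plasma-like and T-like barcodes.

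Which cells supplied a transcript changed between libraries together with the cell mix. Monocyte-like barcodes held 17.6% and 26.0% of all Il1b UMIs in the controls and 46.7% and 38.1% in the stress libraries. They were 3.08%, 1.49%, 4.72% and 5.05% of the kept barcodes, so both shares were higher in both stress libraries. Macrophage-like barcodes held 43.5%, 23.2%, 26.9% and 27.9% of Il1b UMIs, with control 1 alone above the others. Casp4 UMIs were spread more widely: plasma-like barcodes held 17.9%, 15.1%, 27.9% and 36.6% of them, B-like barcodes 9.03%, 36.9%, 15.8% and 12.6%, and monocyte-like barcodes 7.28%, 6.28%, 16.9% and 14.8%.

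The monocyte-like and macrophage-like classes of the same libraries were compared with the library as a block. Of the 9 genes, 5 passed an adjusted p of 0.05 in edgeR's quasi-likelihood test, where 15.5% of 6814 genes did, 7.44% higher and 8.1% lower. Gsdmd was higher in monocyte-like barcodes, by 0.49 on the log2 scale (SE 0.16, adjusted p = 0.0378), and the other 4 were lower. The log2 difference, monocyte-like minus macrophage-like, was −2.13 for Il1a (SE 0.27, adjusted p = 0.000178), −1.62 for Il1r2 (SE 0.18, adjusted p = 1.74e-05), −0.69 for Il1rn (SE 0.13, adjusted p = 0.00058) and −0.57 for Nlrp3 (SE 0.14, adjusted p = 0.00668). For Il1b the difference was −0.24 (SE 0.09, adjusted p = 0.108), and for Casp4 −0.03 with a 95% interval from −0.35 to 0.28. The median over the 9 genes was −0.24 against −0.01 over all genes tested. At an unadjusted p under 0.05 there were 6 of the 9, against 26.2% of all genes tested. DESeq2 called 3 of the 9, all lower in monocyte-like barcodes, beside 576 of 14558 genes. Clusters in place of the gate gave 3, of which 2 were higher and 1 lower, beside 621 of 6071 genes. The Gsdmd call was lost in DESeq2 and without control 1, control 2 or stress 2.

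Against cDC2-like barcodes, 4 of the 9 genes passed in monocyte-like barcodes, where 23.9% of 4994 genes did (12% higher and 11.9% lower). Whether these shares differ was not tested. Il1r2 was lower by a log2 difference of −2.64 (SE 0.24, adjusted p = 5.2e-05). Il18 was higher by 0.96 (SE 0.32, adjusted p = 0.0359), Casp4 by 0.59 (SE 0.16, adjusted p = 0.0119) and Gsdmd by 0.55 (SE 0.18, adjusted p = 0.0368). Il1b differed by −0.01 with a 95% interval from −0.39 to 0.37. At an unadjusted p under 0.05 there were 5, against 34.3% of all genes tested. The count of 4 moved to 8 with clusters (1994 of 6681 genes), 1 with DESeq2 (686 of 13992) and 2 without control 1 (1111 of 5352).

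Restraint was tested within each class that had at least 30 barcodes in every library. In monocyte-like barcodes 0 of the 9 genes passed edgeR's adjusted p of 0.05, where 1.19% of 7032 genes did, and DESeq2 called 0 as well. At an unadjusted p under 0.05 there were 2, Nlrp3 and Casp4, against 11.2% of all genes tested. Nlrp3 was higher by 0.65 on the log2 scale (SE 0.20, adjusted p = 0.162) and Casp4 by 0.58 (SE 0.22, adjusted p = 0.304). Il1b was higher by 0.89 (SE 0.41, adjusted p = 0.557), with a 95% interval from −0.30 to 2.09, and Il1rn by 0.78 (SE 0.79, adjusted p = 0.827). All 9 differences were above 0, with a median of 0.58 against −0.003 over all genes tested, of which 49.8% were above 0.

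The 2 controls decided these values. For Il1b both stress levels lay above both controls, as they did for Il1rn, Nlrp3 and Casp4 and for 23.8% of all genes tested, yet control 1 lay 1.96 times above control 2. For Il1rn control 1 was 4.58 times control 2 and close to both stress libraries. Without control 1, the log2 change was 1.51 for Il1b, 2.28 for Il1rn, 1.38 for Il1r2, 0.97 for Casp4 and 0.96 for Nlrp3. Il1a has no UMI in the control left. Without control 2, the change was 0.46 for Il1b and 0.02 for Il1rn. A replicate block in edgeR called 2 of the 9, beside 217 of all 7032 genes, where the main fit called 84. They were Il1b at 0.98 (adjusted p = 1.15e-08) and Il1rn at 0.97 (adjusted p = 0.0017), although the labels do not say that the replicate numbers pair the libraries.

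**Figure D3:**
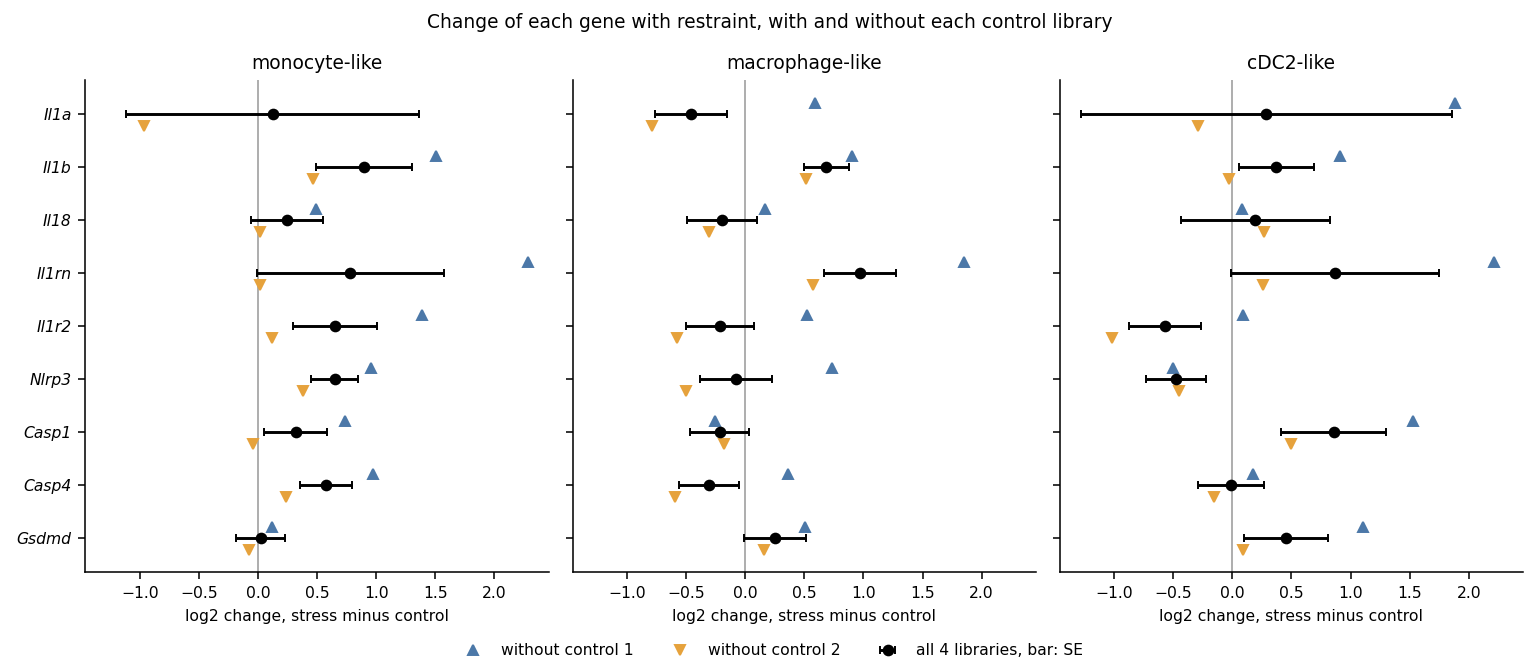
Log2 change of each gene, stress minus control, in 3 classes, with all 4 libraries (black, bar for the SE) and with 1 control left out (triangles); Il1a without control 1 is not drawn for monocyte-like barcodes because control 2 has no UMI of it there. In monocyte-like barcodes every drawn value without control 1 lies right of the value without control 2.

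Markers of other cells moved with the groups in monocyte-like barcodes. The summed level of 8 macrophage markers was 3873, 4191, 5522 and 4579 CPM, with 4 of the 8 above both controls in both stress libraries. The summed level of 8 neutrophil markers was 37.2, 65.8, 87.2 and 94.0 CPM, with 4 of the 8 above both controls and Mmp9 at 0, beside 49679 to 159615 CPM in neutrophil-like barcodes. Their part in the changes was not tested. Cluster 7 held 78.5%, 77.8%, 94.9% and 93.8% of the monocyte-like barcodes, and its monocyte-like barcodes alone held 5944, 2819, 8220 and 7003 CPM of Il1b.

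Thinning every monocyte-like barcode to 1000 UMIs, which left out 3, 5, 3 and 4 shallower ones, put depth on one footing. An Il1b UMI was then seen in 77.6%, 64.5%, 93.1% and 90.2% of barcodes, against 86.1%, 81.5%, 97.2% and 97.1% before thinning. The exact binomial (Clopper-Pearson) intervals ran from 66.6% to 86.4% in control 1 and from 90.1% to 95.4% in stress 1. The group means were 71.1% ± 9.30 and 91.7% ± 2.00 (SD, n = 2 each; exact two-sided permutation p = 0.333, the smallest that 2 libraries against 2 can give). In B-like barcodes, which should lack Il1b, the thinned share was 0.722%, 0.851%, 1.37% and 1.93%. The median monocyte-like barcode held 3, 2, 7 and 5 Il1b UMIs per 1000, and 18.4%, 5.26%, 32.1% and 25.9% held at least 10. Both stress libraries were above both controls on each of these measures.

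The other 8 genes were sparser per barcode. Casp4 was seen in 6.58%, 3.95%, 18.5% and 15.1% of the thinned monocyte-like barcodes, and the 2 groups did not overlap (exact permutation p = 0.333); with clusters in place of the gate the difference shrank from 11.5 to 1.09 percentage points (exact permutation p = 0.667). Il1rn was seen in 18.4%, 3.95%, 16.9% and 17.1%, so control 1 was above both stress libraries. Barcodes above their library's median of Il1b had an Il1rn UMI in 22.2%, 7.14%, 21.1% and 19.6% of cases, against 15%, 2.08%, 13.5% and 14.8% of the remaining ones. The direction was the same in all 4 libraries, although control 2 rests on 28 barcodes above the median and 48 at or below it. In macrophage-like and cDC2-like barcodes it held in control 1, stress 1 and stress 2. It was reversed there in control 2, at 5.88% against 19.0% and 0% against 5.56%. In monocyte-like barcodes Gsdmd showed no such order, at 16.7%, 0%, 9.14% and 11.3% above the median and 10.0%, 12.5%, 7.91% and 12.0% at or below it. A share of 0 of 28 barcodes is a small base.

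**Figure D4:**
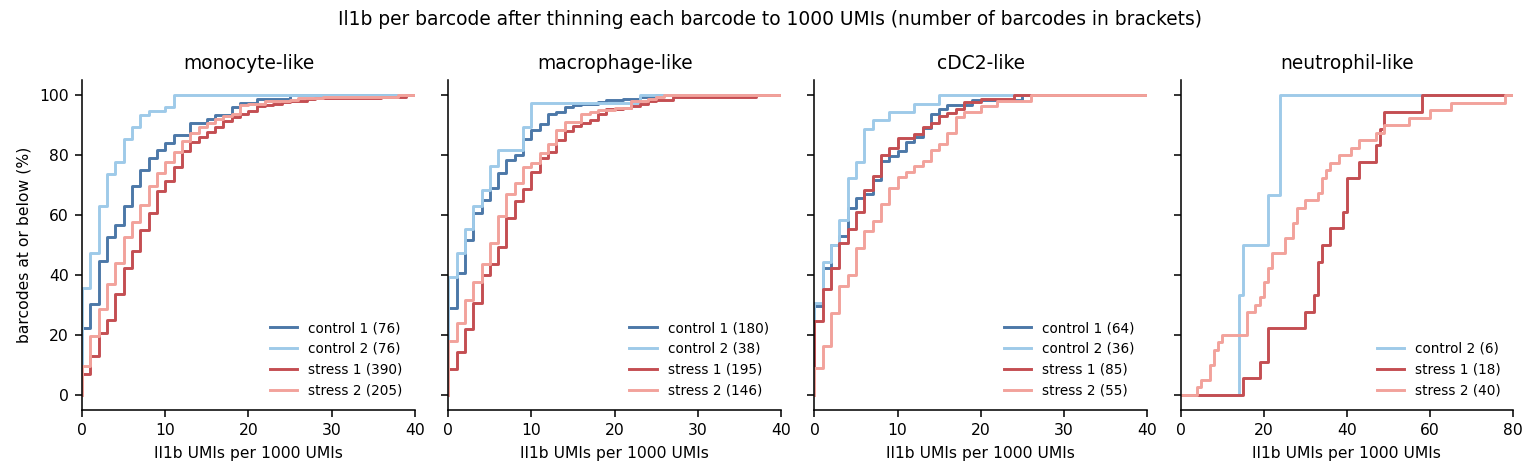
Cumulative share of barcodes, in percent, by their Il1b UMIs after thinning to 1000 UMIs, in 4 classes and by library; libraries with under 5 barcodes are not drawn. In monocyte-like barcodes the control 2 curve rises first, with a median of 2, and the stress 1 curve last, with a median of 7.

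In macrophage-like barcodes 0 of the 9 genes passed in edgeR, where 1.32% of 7123 genes did, and DESeq2 called 0. At an unadjusted p under 0.05 there were 2, against 12.1% of all genes tested. Il1rn was higher in stress by 0.97 on the log2 scale (SE 0.30, adjusted p = 0.194) and Il1b by 0.69 (SE 0.19, adjusted p = 0.134), and both stress levels of each lay above both controls, as for 24.4% of all genes tested. Il1a (−0.46, SE 0.30), Casp4 (−0.31, SE 0.25) and Il1r2 (−0.21, SE 0.29) had negative differences, and the median over the 9 genes was −0.20.

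The make-up of this class differed between libraries. Cluster 1 held 36.6%, 24.4%, 11.1% and 34.7% of the macrophage-like barcodes of control 1, control 2, stress 1 and stress 2. Cluster 21 held 44.3%, 15.6%, 6.28% and 7.65%, and cluster 7 held 17.4%, 57.8%, 81.6% and 57.6%. The summed level of 8 monocyte markers moved with the groups, at 687, 1519, 2216 and 1869 CPM, with 4 of the 8 above both controls in both stress libraries and none at 0. That of 8 macrophage markers was 41429, 21180, 18686 and 20907 CPM, highest in control 1. The 6 plasma markers summed to 129, 91.4, 266 and 399 CPM, with 3 of 6 above both controls in both stress libraries and none at 0 in all. Their part in the changes was not tested. The macrophage-like barcodes of cluster 7 alone were a choice made after the values were seen. Their Il1b was 5295, 4837, 8369 and 7884 CPM and passed in edgeR (log2 change 0.64, adjusted p = 0.0331). Il1a passed too (2.54, adjusted p = 0.0393), and so did 56 of all 5461 genes in that fit. Il1a thus had a negative difference in the whole class and rose within cluster 7. Without a filter on low counts Il1b and Il1rn passed, beside 270 of all 13642 genes. Without control 1 their log2 changes were 0.90 and 1.85. Without control 2 they were 0.52 and 0.57, with Il1a at −0.79 and Il1r2 at −0.58.

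In cDC2-like barcodes 0 of the 9 genes passed in edgeR and 0 in DESeq2, where 0.233% of 5148 genes did in edgeR. None had an unadjusted p under 0.05, against 8.43% of all genes tested. Of the 9 differences 6 were above 0, with a median of 0.29 against 0.002 over all genes tested. The differences were 0.37 for Il1b (SE 0.32, 95% interval −0.33 to 1.08), 0.86 for Casp1 (SE 0.44) and −0.47 for Nlrp3 (SE 0.25). For Il1r2 it was −0.57 (SE 0.31), with control 1 alone at 856 CPM and the other 3 libraries between 471 and 489 CPM. Without control 1, the log2 change was 0.91 for Il1b and 2.21 for Il1rn. Without control 2 it was −1.02 for Il1r2, and without stress 1 it was 1.41 for Il1rn. Plasma markers in cDC2-like barcodes summed to 82.6, 60.7, 263 and 262 CPM, with 2 of 6 above both controls in both stress libraries and Tnfrsf17 at 0, and their part in the differences was not tested.

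Whether restraint moved these genes differently between classes was tested by the interaction of class and group. For monocyte-like minus macrophage-like barcodes 0 of the 9 passed in edgeR (0.418% of 7649 genes did) and 0 in DESeq2, with 3 at an unadjusted p under 0.05 (7.82% of all genes tested): Casp4 at 0.77 (SE 0.25), Il1r2 at 0.74 (SE 0.30) and Nlrp3 at 0.64 (SE 0.22) on the log2 scale. For monocyte-like minus cDC2-like barcodes, a comparison added after the values were seen, 0 passed (0.0172% of 5825 genes did) and DESeq2 called 0, with 3 at an unadjusted p under 0.05 (5.73% of all genes tested). Nlrp3 differed there by 1.13 (SE 0.29, adjusted p = 0.358), Il1r2 by 1.19 (SE 0.28, adjusted p = 0.257) and Il1b by 0.58 (SE 0.24, adjusted p = 0.797).

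Neutrophil-like barcodes could not be tested, since control 1 had 1 of them. Over their barcodes Nlrp3 was 4382, 1793, 3000 and 2383 CPM, Il1r2 was 5355, 1549, 1857 and 2200 CPM, and Il1rn was 2434, 245, 1786 and 2094 CPM. The control values of these 3 genes rest on 3 to 22 UMIs each. Casp1 had 2 UMIs and Gsdmd 11 over the neutrophil-like barcodes of all libraries. For Il1b, control 2 had 211 UMIs in 8 barcodes, and both stress libraries were above it. After thinning, a median neutrophil-like barcode held 18, 35 and 25 Il1b UMIs per 1000 in control 2, stress 1 and stress 2.

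T-like barcodes carried low levels of 5 of the 9 genes that could be tested. edgeR called 0 of 9886 genes, hence 0% of them and 0 of the 5. At an unadjusted p under 0.05 there were 4 of the 5, against 7.55% of all genes tested, and DESeq2 called 1, Casp4 (adjusted p = 0.012). Casp4 was 29.97, 15.5, 74.97 and 69.9 CPM, a log2 change of 1.65 (SE 0.27, edgeR adjusted p = 0.395). Il1r2 changed by 1.88 (SE 0.35, adjusted p = 0.395). Casp1 was 23.2, 9.56, 33.9 and 47.6 CPM, a change of 1.37 (SE 0.37, adjusted p = 0.544). Gsdmd was 26.2, 22.01, 27.7 and 27.3 CPM and changed by 0.06 (95% interval −0.42 to 0.54). For all 5, Gsdmd among them, both stress levels lay above both controls, as they did for 30.9% of all genes tested. Markers of other cells moved with the groups here too: 6 plasma markers summed to 70.4, 85.3, 281 and 442 CPM (4 of 6 above both controls in both stress libraries, none at 0 in all) and 8 monocyte markers to 447, 248, 537 and 512 CPM (4 of 8, none at 0 in all). The 8 macrophage markers summed to 101, 67.2, 109 and 99.8 CPM, where control 1 was above stress 2, with 4 of 8 above both controls in both stress libraries and Mertk at 0. Their part in the changes was not tested. Without a filter on low counts 5 of the 9 passed, a count not set here against the share of all genes in that fit. Without control 2 the log2 change was 1.22 for Casp4 and 1.25 for Il1r2.

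The T-like classes were not alike in the libraries. Clusters 25, 27 and 30, which had high levels of Lef1 and Ccr7, genes of naive T cells, held 16.7%, 71.1%, 29.3% and 13.9% of T-like barcodes. Il1r2 was nearly absent there, with 0, 0, 0 and 1 UMIs, and Casp4 had 2, 8, 9 and 0 UMIs. In clusters 16, 24, 29 and 32, which were grouped after their values were seen and had higher Ctla4, an inhibitory receptor of activated and regulatory T cells, Casp4 was 60.6, 68.0, 121.8 and 113.8 CPM. Il1r2 in those clusters was 32.1, 37.7, 70.4 and 52.4 CPM, and Casp1 was 33.9, 32.4, 50.9 and 61.4 CPM. No test was made, and the clusters of that grouping did not move alike. In cluster 24 both stress libraries were above both controls, with Il1r2 at 43.0, 44.0, 117 and 80.7 CPM and Casp4 at 46.6, 96.3, 147 and 129.6 CPM. In cluster 29 they were not, with Il1r2 at 27.05, 62.5, 54.3 and 30.8 CPM and Casp4 at 121.7, 74.9, 103 and 141.5 CPM, and cluster 32 held no Il1r2 UMI. Of 131 T-like barcodes with an Il1r2 UMI, 93.1% had a Ctla4 UMI and 11.5% a Foxp3 UMI, against 36.7% and 3.80% of 4234 without one, at median depths of 3893 and 2944 UMIs.

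**Figure D5:**
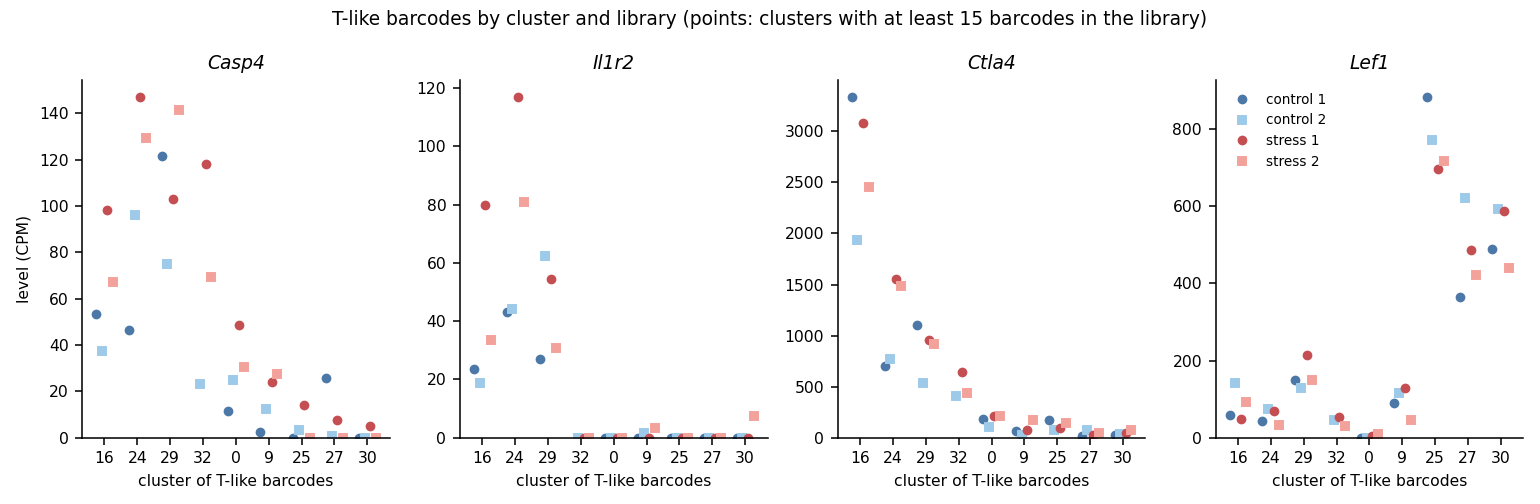
Level in CPM of Casp4 and Il1r2, and of Ctla4 and Lef1 for orientation, in 9 clusters of T-like barcodes, with 1 point per library. Il1r2 was counted in clusters 16, 24 and 29 but at 0 in cluster 32, Casp4 was counted in all 4 of these, and both were low in clusters 25, 27 and 30, where Lef1 was high.

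Il1b in T-like barcodes was 4.50, 2.39, 22.3 and 42.6 CPM, a log2 change of 3.28 (SE 0.45, edgeR adjusted p = 0.19). In stress 1 a single barcode held 41 of 87 UMIs, and in stress 2 a pair of barcodes held 90 of 151. After thinning, 0.499%, 0.0633%, 0.984% and 2.32% of T-like barcodes had an Il1b UMI, under the B-like share in control 1, control 2 and stress 1 and above it in stress 2. The summed level of 8 neutrophil markers in T-like barcodes was 16.5, 6.65, 20.03 and 28.2 CPM, with 1 of 8 above both controls in both stress libraries and Retnlg and Lcn2 at 0. Its part in the Il1b level was not tested. For Casp4 the thinned T-like shares of 2.49%, 1.39%, 6.82% and 5.35% differed from the B-like shares of 3.13%, 3.22%, 3.48% and 2.98%, lower in both controls and higher in both stress libraries.

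B-like barcodes, the largest class, held low levels. Of 6 testable genes 0 passed in edgeR (0.779% of 10399 genes did) or in DESeq2, and 0 had an unadjusted p under 0.05, against 14% of all genes tested. The log2 change of Il1b was 0.42 (95% interval −0.05 to 0.88), that of Casp4 −0.01 (−0.37 to 0.36) and that of Casp1 0.10 (−0.28 to 0.48). In plasma-like barcodes 0 of 6 passed (0.375% of 9593 genes did) in edgeR, 0 in DESeq2 and 0 had an unadjusted p under 0.05, against 10.2% of all genes tested. Casp4 there was 40.8, 35.1, 36.6 and 40.6 CPM, a change of −0.05 (95% interval −0.41 to 0.31).

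Other genes of the IL-1 and inflammasome pathways were read from a fixed list of 43 genes that hold no member. Under restraint 1 of the 23 testable in monocyte-like barcodes passed in edgeR, Il18bp, which encodes a secreted protein that binds IL-18. It was 0, 2.27, 19.9 and 19.4 CPM. Both stress libraries were above both controls, and with control 1 at 0 the fitted change is no bound. The adjusted p was 0.0245, and the macrophage-like level was 16.3, 15.9, 32.6 and 39.6 CPM (log2 change 1.07, adjusted p = 0.194). DESeq2 called 0 in monocyte-like barcodes. In the other classes edgeR called 0 of 20 testable pathway genes in macrophage-like, 14 in cDC2-like, 25 in T-like, 22 in B-like and 21 in plasma-like barcodes, with 6, 2, 3, 4 and 4 of them at an unadjusted p under 0.05, beside 12.1%, 8.43%, 7.55%, 14% and 10.2% of all genes tested. DESeq2 called 1 in plasma-like barcodes and 0 in the other 4 classes. Pycard, the adaptor of caspase-1, was 240.5, 208.9, 320 and 309 CPM in monocyte-like barcodes (log2 change 0.47, SE 0.17, adjusted p = 0.279). Ninj1, which drives membrane rupture after gasdermin pores form, was 412, 293, 430 and 319 CPM, and Mefv, which encodes the inflammasome sensor pyrin, was 133.9, 197.5, 244 and 206 CPM.

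Between classes, 6 of 20 pathway genes passed in monocyte-like against macrophage-like barcodes, 4 higher and 2 lower, where 15.5% of all genes tested did. DESeq2 called 0 of 34, with 6 at an unadjusted p under 0.05, and without stress 1 edgeR called 1, which was lower. Irak3 (0.89), Mefv (0.53), the adaptor Myd88 (0.51) and Pycard (0.40) were higher in monocyte-like barcodes on the log2 scale. Il18bp (−1.16) and P2rx7 (−1.11), an ATP-gated channel that can trigger NLRP3, were lower. Against cDC2-like barcodes 4 of 15 passed, near the share of 23.9% of all genes tested, and all were higher in monocyte-like barcodes: Ninj1 (1.39), Naip2 (1.33), Mefv (0.85) and Irak2 (0.71). Naip2 has close paralogs, so its count is uncertain.

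Across 31 class-by-library sums of 11 classes, the genes most like each member were found among 5334 genes by Pearson correlation of log2(CPM + 10). The sums of a class share its identity and those of a library share its depth, so these values describe and are given with no test. Il1b was most like Cd300c2 (r = 0.98), Csf2rb (0.98) and Ptafr (0.98), and Nlrp3 most like Ptafr (0.98), Cd300c2 (0.97) and Bcl2a1a (0.97). Il1rn came with Fcgr4 (0.96), Clec4n (0.96) and Pilra (0.96), and Il1a with Slc7a11 (0.91), Clec4n (0.90) and C5ar1 (0.90). Il1r2 came with Bcl2a1a (0.94), Cd80 (0.94) and Ebi3 (0.93), and Il18 with Ccl6 (0.89), Anxa3 (0.89) and Tns3 (0.88). The caspases had lower values: Casp4 with Ccrl2 (0.90), Vmp1 (0.89) and Mapkapk2 (0.88), and Casp1 with Cox5a (0.84), Cox6b1 (0.82) and Fam96a (0.81). Gsdmd came with Sdcbp (0.93), Socs3 (0.93) and Fam174a (0.93). Bcl2a1a has near-identical copies, so its count is uncertain.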

How the data were processed

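The deposited matrices hold raw UMI counts. Per the submitters' processing notes the authors used Cell Ranger (5 or 5.0) and mm10; file headers name software 3.1.0, and no source used here gives an annotation release. Barcodes under 500 UMIs or over 10% mitochondrial UMIs were dropped, leaving 12552824 to 36370030 UMIs per library. A barcode needed at least 3 markers of a lineage and 2 of a myeloid subclass; one with strong markers of a second lineage was set aside as a likely doublet. Sums per class and library were tested with edgeR 4.0.16 (quasi-likelihood, TMM, filterByExpr, Benjamini-Hochberg over all genes tested). Leiden clusters (scanpy 1.11.5) were made without the 9 genes. The fits were tested on simulated data. DESeq2 1.42.0, other filters and gates, and leaving out each library were tried. Named were the 9 genes, pathway genes that passed or had the 3 highest levels, and the 3 genes most like each member. Members and lists were chosen with earlier results of these data known. The labels do not say whether replicate numbers pair libraries. Deviations of same-numbered libraries correlated between −0.21 and −0.02, which with 2 libraries a group cannot settle it. Intervals of levels and shares cover counting error only; those of log2 differences come from the edgeR fits and rest on the spread among libraries.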

Additional observations from a re-analysis of the deposited data

How the results depend on the processing

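Counts of the 9 genes called moved as follows. The number of all genes called moved as well. For restraint in monocyte-like barcodes it went from 84 of 7032 in the main fit to 259 of 13411 with no filter on low counts. With DESeq2 the count was 1 in monocyte-like against cDC2-like barcodes, 3 in monocyte-like against macrophage-like barcodes and 1 under restraint in T-like barcodes; with clusters in place of the gate the 2 class comparisons gave 8 and 3. DESeq2 put the median log2 difference of all genes at −0.12 in the first comparison, against −0.012 in edgeR. With no filter on low counts restraint gave 5 in T-like, 2 in macrophage-like and 1 in monocyte-like barcodes, and the interaction of monocyte-like with cDC2-like barcodes gave 2. The macrophage-like barcodes of cluster 7 gave 2. The replicate block gave 2 in monocyte-like barcodes and 0 in the other classes, and the labels do not say that the numbers pair the libraries. A crossed pairing, chosen after the data were seen, gave 1 in T-like, 1 in cDC2-like and 0 in the other classes. In cDC2-like barcodes that fit called 200 of all 5148 genes, where the main fit called 12. Leaving out 1 library, which assumes that the lone library of its group varies like the others, gave 0 to 6 in monocyte-like, 0 to 4 in macrophage-like, 0 to 2 in cDC2-like and 0 to 4 in T-like barcodes. It gave 2 to 4 in monocyte-like against cDC2-like barcodes, 0 to 2 for the interaction with macrophage-like and 0 to 1 for that with cDC2-like barcodes. The counts of 0 in B-like and plasma-like barcodes held under every alternative run.

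Log2 changes that turned sign had main values that did not pass. Leaving out 1 library took Casp1 from −0.042 to 0.74, Gsdmd from −0.079 to 0.13 and Il1a from −0.96 to 7.74 in monocyte-like barcodes, the last with no UMI in the control left. In macrophage-like barcodes it took Casp4 from −0.60 to 0.36, Il18 from −0.30 to 0.17, Il1a from −0.79 to 0.59, Il1r2 from −0.58 to 0.52 and Nlrp3 from −0.50 to 0.74. In cDC2-like barcodes it took Casp4 from −0.16 to 0.18, Il18 from −1.19 to 0.80, Il1a from −3.72 to 1.88, Il1b from −0.025 to 0.91, Il1r2 from −1.02 to 0.091 and Il1rn from −0.084 to 2.21. With clusters, Casp1 (−0.076), Gsdmd (−0.011) and Il18 (−0.033) turned in monocyte-like and Casp1 (0.58), Gsdmd (−0.10), Il18 (0.71) and Il1rn (−0.054) in macrophage-like barcodes. In cluster 7 of the latter, Casp4 (0.20), Il1a (2.54), Il1r2 (0.39) and Nlrp3 (0.37) turned. The stricter gate turned Gsdmd (−0.018) and Il1a (−0.18) in monocyte-like and Il1a (−0.65) in cDC2-like barcodes. Leaving out Scrublet doublets turned Il1a (−0.025) in monocyte-like barcodes, the mitochondrial limit of 25% turned Casp4 (0.013) in cDC2-like and Gsdmd (−1.57e-06) in T-like barcodes, the replicate block turned Nlrp3 (0.058) in macrophage-like and Il18 (−0.046) and Il1a (−0.10) in cDC2-like barcodes, and the crossed block turned Nlrp3 (0.038) in macrophage-like barcodes. The cause was not tested.

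Differences in the thinned share of monocyte-like barcodes, in percentage points, turned for Il1r2 (−0.31) and Il18 (−0.50) at 500 UMIs, for Nlrp3 (−0.95) with clusters, and for Casp1 (10.0) and Gsdmd (4.78) with no thinning. With clusters, mean CPM over the 4 libraries moved beyond the spread for Il1r2 (8.73) and Nlrp3 (0.306) in B-like, Il1a (0.232) in T-like, Casp4 (71.5), Gsdmd (37.7), Il1b (3031) and Nlrp3 (131) in cDC2-like, Gsdmd (42.8), Il18 (36.4), Il1b (3338) and Il1rn (210.4) in macrophage-like, and Gsdmd (88.0) and Il1r2 (140) in monocyte-like barcodes. With 2 libraries a group, all calls rest on few samples, and most genes other than Il1b had few UMIs per barcode.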
